A study of Mus musculus with 6 samples.

Results

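The genes described here are 30 named genes that make, sense, move, export or store cholesterol, taken from a list of symbols and matched in all 30 cases among the 55487 genes of the deposited tables. They comprise 18 enzymes of synthesis, 6 regulators, 3 intracellular transport genes and 3 efflux or storage genes, and all 30 passed the filter on low counts. Their working name includes uptake, but none of the 30 encodes a cell-surface lipoprotein receptor. The study read the poly(A) RNA of 6 libraries of spleen cells labelled naive CD4+ T, all from wild-type C57BL6/J mice. In the untreated group, 3 libraries came from mice that received no treatment. In the rapamycin group, 3 libraries came from mice given rapamycin in vivo, a drug that inhibits the kinase mTOR. Both groups share genotype, strain and tissue, and the drug's dose, route and duration and the age of the mice are not given in the sources used here. The comparison asks how mTOR inhibition alters these cells.

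Cholesterol is built from acetyl units through mevalonate and squalene to lanosterol, which is then trimmed to cholesterol in the endoplasmic reticulum. The transcription factors encoded by Srebf1 and Srebf2 raise the synthesis genes when membrane sterol is low. Insig proteins hold their escort Scap in the endoplasmic reticulum when sterol is plentiful, and LXR receptors such as the product of Nr1h2 raise the exporters Abca1 and Abcg1. Resting T cells have a low need for new membrane, activated T cells raise sterol synthesis, and mTOR complex 1 is known to favour the activity of the Srebf factors.

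Promoter sequences are shown because many of the synthesis genes moved together, and the letters let a reader see the boxes known from sterol-regulated promoters. RefSeq promoters on GRCm38.p6, the assembly that mm10 names, were found for 24 of the 30 members, each covering 250 bases before to 50 after a start site, and 15 of the 18 synthesis genes were among them. The runs below are the 250 bases before the start, read 5′ to 3′ on the gene's strand. In the first, capitals mark the sterol element SRE-1 (TCACNCCAC) and the NF-Y box (CCAAT or ATTGG). In the next 3, capitals mark the NF-Y box alone. These were chosen after the matches were seen, as the synthesis genes with the smallest adjusted p that have a single start in the table and a window outside the annotated gene. In Abca1, the member with the largest rise and likewise chosen after the matches were seen, they mark the GC box (GGGCGG) and the E-box (CACGTG). The window of Hmgcs1 lies on the plus strand at chr13:119690101-119690350, that of Ebp on the minus strand at chrX:8193513-8193762, that of Mvd on the minus strand at chr8:122443423-122443672, that of Mvk on the plus strand at chr5:114444019-114444268 and that of Abca1 on the minus strand at chr4:53159896-53160145.
Hmgcs1: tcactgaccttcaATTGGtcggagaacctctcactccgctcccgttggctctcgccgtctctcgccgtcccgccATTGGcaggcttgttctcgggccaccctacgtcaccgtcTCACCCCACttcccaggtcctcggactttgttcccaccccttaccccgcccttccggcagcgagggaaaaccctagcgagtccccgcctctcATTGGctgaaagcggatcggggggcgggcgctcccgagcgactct
Ebp: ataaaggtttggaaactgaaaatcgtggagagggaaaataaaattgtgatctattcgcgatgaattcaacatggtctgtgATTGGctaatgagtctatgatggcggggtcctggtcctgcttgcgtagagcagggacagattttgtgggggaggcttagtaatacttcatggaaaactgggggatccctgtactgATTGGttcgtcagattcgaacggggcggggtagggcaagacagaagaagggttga
Mvd: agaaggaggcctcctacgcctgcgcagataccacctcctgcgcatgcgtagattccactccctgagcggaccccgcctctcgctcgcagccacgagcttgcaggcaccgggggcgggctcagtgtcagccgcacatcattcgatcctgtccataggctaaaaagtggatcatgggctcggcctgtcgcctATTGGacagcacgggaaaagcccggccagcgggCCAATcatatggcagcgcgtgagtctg
Mvk: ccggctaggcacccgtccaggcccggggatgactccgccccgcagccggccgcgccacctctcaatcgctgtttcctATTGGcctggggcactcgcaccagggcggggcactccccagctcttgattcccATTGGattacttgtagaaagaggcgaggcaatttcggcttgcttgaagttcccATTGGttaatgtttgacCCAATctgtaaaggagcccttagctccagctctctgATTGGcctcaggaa
Abca1: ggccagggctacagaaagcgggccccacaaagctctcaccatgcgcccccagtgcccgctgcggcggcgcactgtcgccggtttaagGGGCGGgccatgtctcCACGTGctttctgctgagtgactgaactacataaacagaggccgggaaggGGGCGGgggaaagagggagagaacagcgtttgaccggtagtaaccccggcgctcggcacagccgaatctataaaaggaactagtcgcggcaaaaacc
Each motif was searched on both strands, and matches of different motifs may overlap. An NF-Y box was present in 14 of the 15 synthesis genes and 6 of the 9 other members in the table, against 43.1% of the 8726 tested genes that the table holds. A GC box was present in 14 of 15 and 8 of 9, against 68.9%. The E-box was present in 3 of 15 and 3 of 9, against 12.1%. SRE-1 was matched in Hmgcs1 alone, against 1.36% of tested genes. The stricter form of SRE-1, with an A before these letters, was matched in 0 members, against 0.16%. The LXR element was searched only as a perfect repeat (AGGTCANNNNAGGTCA), matched in 0 members and 0 tested genes. That repeat was matched in 5 of 32851 promoters in the table, so a match in a member was unlikely from the start. Looser forms of the LXR element were not searched, in Abca1 or elsewhere. These are matches of letters in a short window, and no match says only that those letters are not in it.

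The 6 libraries held between 8757273 and 11393299 rounded expected counts. Levels are given as CPM, counts scaled to library size with TMM factors, and a floor of 3 counts lay between 0.260 and 0.348 CPM, covering counting error only. The labels do not say whether libraries came from separate mice, and p-values therefore reflect only how far these libraries vary, which can be technical. The summed CPM of 12 T cell markers was 7555 to 7649 in untreated and 7885 to 7979 in rapamycin libraries. The summed CPM of 12 myeloid markers was 59.8 to 68.8 in untreated and 22.1 to 22.3 in rapamycin libraries, with none at 0 in all libraries and 10 of the 10 tested lower (Lyz2 went from a mean of 17.1 to 3.71 CPM and Spi1 from 7.50 to 5.15 CPM). The T cell marker Tcf7 stood at a mean of 1520 CPM in untreated libraries. The sum of 8 B cell markers, Cd79a among them, was 567 to 601 and 553 to 584, and that of the CD8 genes Cd8a and Cd8b1 was 19.1 to 20.5 and 87.9 to 91.0. The sum was 69.9 to 73.2 and 67.8 to 68.9 for 8 NK and cytotoxic markers (led by Prf1 and Eomes) and 26.1 to 30.1 and 23.5 to 26.1 for 5 plasma cell markers (led by Prdm1 and Jchain, with Tnfrsf17 at 0). Within the plasma cell list Jchain fell from a mean of 11.6 to 0.788 CPM and Prdm1 rose from 8.94 to 18.7 CPM, with 2 lower and 1 higher of 4 tested and a median log2 fold change of −1.08. The sum was 7.99 to 11.3 and 2.62 to 3.13 for 6 erythroid markers (led by Hbb-bs and Hba-a2), and 1.90 to 3.76 and 4.29 to 5.30 for 5 platelet markers (led by Itga2b and Gp9). Changes also followed gene length: with genes put in 10 equal groups by length, the shortest group had a median log2 fold change of −0.32 and the longest of 0.25. Values from a fit that corrects for this trend are called length-corrected, and an adjusted p printed after both values belongs to the uncorrected fit. In bulk RNA, fewer cells of a type and less RNA per cell cannot be told apart.

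With rapamycin most synthesis genes fell, and the efflux and storage genes rose, of which Abca1 alone was still called higher after correction for length. In a quasi-likelihood test with edgeR, adjusted by Benjamini-Hochberg over all tested genes, 16 of the 30 members were lower at an adjusted p under 0.05, against 23.3% of all 11950 tested genes. In the same test 6 members were higher, against 24.1%, so that 22 were called in either direction, against 47.4%, and 8 were not. Length-corrected, 19 were lower (background 18.3%) and 2 higher (background 20.2%), in all 21 called (background 38.5%). The median log2 fold change, rapamycin over untreated, was −0.22 over the members and −0.01 over all tested genes. CPM values of the groups did not overlap for 15 members in the lower direction, against 26.8% of tested genes, and for 6 in the higher direction, against 26.9%.

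**Figure D1:**
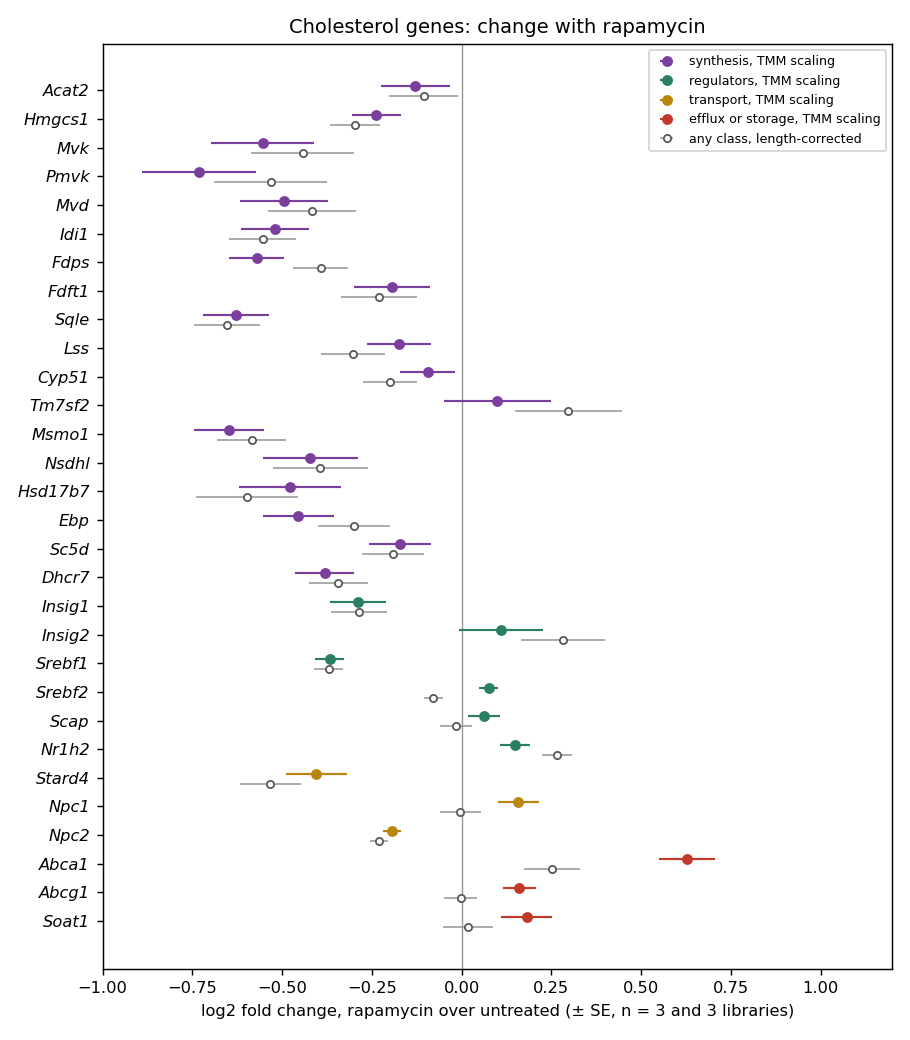
Log2 fold change of each of the 30 members, rapamycin over untreated (x axis, ± SE, 3 libraries a group); filled points use TMM scaling and are coloured by class, open points are length-corrected. The 18 synthesis genes lie left of 0 except Tm7sf2, and Srebf2, Scap, Npc1 and Abcg1 change sign with the length correction.

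Of the 18 synthesis genes, 12 fell and 0 rose (background 23.3% lower and 24.1% higher), and their median log2 fold change was −0.44. Length-corrected, 14 were lower and 0 higher (background 18.3% and 20.2%), with a median of −0.37. Under the 16 alternative settings tried, the synthesis median stayed between −0.49 and −0.30. A test on deposited TPM values, which scale for transcript length, called 7 of the 18 lower and 0 higher (background 9.63% lower, 22.8% higher and 32.4% in either direction), and on that scale the median log2 difference of all genes stood at 0.09. The 7 were Mvk, Pmvk, Mvd, Idi1, Fdps, Sqle and Msmo1. The CPM of the 18 genes summed to 480 ± 1.10 (SD, n = 3) in untreated and 376 ± 11.3 (SD, n = 3) in rapamycin libraries. Their summed TPM was 332, 334 and 334 in untreated and 290, 261 and 269 in rapamycin libraries, so that the lowest untreated sum lay above the highest rapamycin sum.

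In the mevalonate segment 6 of 7 genes fell (background 23.3%), with a median log2 fold change of −0.52. Length-corrected, it was again 6 of 7 (background 18.3%), with a median of −0.42. Fdps makes farnesyl diphosphate, the branch point to sterols and protein prenylation (ENSMUSG00000059743, mm10 chromosome 3, 89093588 to 89101959). Its CPM was 42.0, 41.9 and 42.7 in untreated and 29.0, 28.0 and 28.2 in rapamycin libraries. The groups did not overlap, and the rapamycin mean was 67.3% of the untreated mean, with a log2 fold change of −0.57 ± 0.08 (SE; length-corrected −0.39; adjusted p = 5.0e-09). Idi1, which isomerises the isoprene building block, had 32.9, 27.0 and 30.8 CPM without and 21.3, 20.1 and 22.0 CPM with rapamycin. The lowest untreated library stood above the highest rapamycin library, and the log2 fold change was −0.52 ± 0.09 (adjusted p = 4.7e-06). Pmvk, the second kinase of mevalonate, had the lowest fold change of all members. It went from 12.5, 9.61 and 11.5 CPM to 7.32, 6.99 and 5.91 CPM, with a log2 fold change of −0.73 ± 0.16 (length-corrected −0.53; adjusted p = 9.3e-05).

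Mvk, the first kinase of mevalonate, whose window above holds 5 NF-Y boxes, fell from 12.9, 14.0 and 11.4 CPM to 8.95, 7.44 and 9.73 CPM (log2 fold change −0.55 ± 0.14). Mvd, the decarboxylase that ends the segment's route to isoprene units, fell from 16.0, 16.6 and 20.3 CPM to 12.9, 11.4 and 13.2 CPM (−0.50 ± 0.12). Neither pair of groups overlapped, and the adjusted p was 0.0010 and 6.2e-04. Hmgcs1, the synthase that feeds the pathway and the one member whose window holds SRE-1, had overlapping groups. Its values were 60.7, 51.4 and 58.1 CPM without and 53.3, 45.1 and 45.9 CPM with rapamycin, so that the highest rapamycin library passed the lowest untreated one. Its log2 fold change was −0.24 ± 0.07 (length-corrected −0.30; adjusted p = 0.0032), and the test on TPM did not call it (adjusted p = 0.371). Acat2, the cytosolic thiolase at the pathway's entry, was not called, at 25.6 ± 1.15 CPM without and 23.5 ± 2.56 CPM with rapamycin (SD, n = 3; adjusted p = 0.278). Its log2 fold change moved from −0.13 to −0.04 without rapamycin replicate 1.

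In the squalene segment 1 of 3 genes fell, against 23.3% of all tested genes, and nothing is read from so small a count. Sqle encodes squalene epoxidase, a rate-limiting enzyme of the sterol branch (ENSMUSG00000022351, mm10 chromosome 15, 59315077 to 59331192). Its CPM was 31.0, 29.8 and 30.9 in untreated and 20.3, 20.1 and 18.9 in rapamycin libraries. The libraries of a group lay close together and far from those of the other, with a log2 fold change of −0.63 ± 0.09 (length-corrected −0.65; adjusted p = 5.2e-08). Its neighbours in the pathway were not called. Fdft1, squalene synthase, was 23.7 ± 3.54 CPM without and 20.6 ± 2.35 CPM with rapamycin (−0.19 ± 0.11, adjusted p = 0.126). Its log2 fold change was −0.07 without untreated replicate 3 and −0.10 without rapamycin replicate 1. Lss, which closes the rings to form lanosterol, was 29.6 ± 2.54 and 26.2 ± 1.43 CPM (−0.17 ± 0.09, adjusted p = 0.103). Length-corrected, Lss was called lower, at −0.30 (adjusted p = 0.0047). It was also called with upper-quartile factors (−0.22), without composition factors (−0.22) and without untreated replicate 1 (−0.25), while the test on log2(TPM + 1) gave 0.11, not called.

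From lanosterol to cholesterol 5 of 8 genes fell (background 23.3%), with a median log2 fold change of −0.40. Length-corrected, 6 were lower (background 18.3%), with a median of −0.32. Msmo1, which oxidises the methyl groups that are removed from lanosterol, had the lowest fold change of this segment. Its CPM was 32.5, 27.3 and 28.2 in untreated and 19.0, 18.8 and 18.4 in rapamycin libraries, with no overlap and a log2 fold change of −0.65 ± 0.10 (length-corrected −0.58; adjusted p = 8.2e-08). Dhcr7, the reductase of the last step, went from 36.8, 40.0 and 36.1 CPM to 31.7, 28.9 and 26.1 CPM (−0.38 ± 0.08, adjusted p = 9.2e-05), and was not called on TPM (−0.34, adjusted p = 0.0965). Ebp, the sterol isomerase, went from 24.7, 29.9 and 25.4 CPM to 19.4, 18.6 and 20.3 CPM (−0.46 ± 0.10, length-corrected −0.30; adjusted p = 1.1e-04). On the TPM scale Ebp had 27.5, 31.3 and 27.6 in untreated and 28.3, 26.0 and 25.0 in rapamycin libraries, which overlap. Its mean deposited length was 1455.9 bases in untreated and 1287.3 in rapamycin libraries.

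Nsdhl and Hsd17b7, a dehydrogenase and a ketoreductase that act in turn on demethylation intermediates, both fell. Nsdhl went from 14.9, 16.6 and 13.2 CPM to 12.8, 10.04 and 10.5 CPM (−0.42 ± 0.13, adjusted p = 0.0065). Hsd17b7 went from 12.4, 14.4 and 10.98 CPM to 9.83, 8.91 and 8.34 CPM (−0.48 ± 0.14, adjusted p = 0.0042). Neither pair of groups overlapped, yet both calls were lost without untreated replicate 2, at −0.34 for Nsdhl (adjusted p = 0.0528) and −0.38 for Hsd17b7 (adjusted p = 0.0501). Neither was called on TPM (adjusted p of 0.0947 and 0.228). The remaining 3 genes were not called. Sc5d, a sterol desaturase, was 32.4 ± 2.90 CPM without and 28.8 ± 3.18 CPM with rapamycin (adjusted p = 0.102). It was called without untreated replicate 3 (−0.23) or rapamycin replicate 1 (−0.27), with upper-quartile factors (−0.21) and without composition factors (−0.21). Cyp51, the lanosterol demethylase, was 37.2 ± 1.81 and 34.8 ± 1.23 CPM (−0.09, adjusted p = 0.320), and −0.20 when length-corrected (adjusted p = 0.0314). Tm7sf2, a sterol reductase, was 9.33 ± 0.420 and 9.998 ± 1.62 CPM (0.10 ± 0.15), and its sign turned to −0.03 without rapamycin replicate 1, its highest library.

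**Figure D2:**
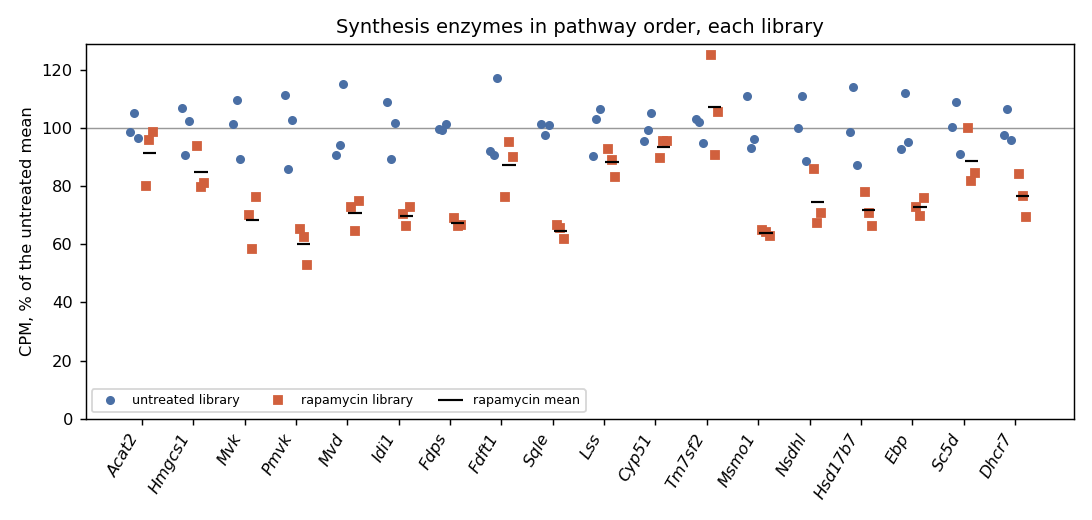
CPM of each synthesis gene in each library as a percentage of that gene's untreated mean (y axis), genes in rough pathway order (x axis); circles are untreated libraries, squares rapamycin libraries and bars the rapamycin mean. The rapamycin libraries of Sqle lie between 61.8 and 66.5% and those of Msmo1 between 62.8 and 64.8%, while Tm7sf2 ranges from 90.7 to 125%.

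Reads of some of these genes could be shared. Acat2, Hmgcs1, Idi1, Fdft1, Tm7sf2 and Scap had expected counts that were not whole within 0.005 in 6 libraries, and Npc1 in 3, which is how the authors' counting records reads split between genes. Exons of 8 members overlap a gene on the other strand, among them Fdft1 with Ctsb, Cyp51 with Akap9, Srebf1 with Rai1 and Npc1 with Rmc1. Exons of 3 overlap a gene on the same strand, Fdps with Gm43738, Tm7sf2 with Vps51 and Srebf1 with Mir6922. The library kit marks strand, but whether the counting used it is not given in the sources used here, so values of these genes are uncertain to that extent.

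Among the 6 regulators 2 fell, 2 rose and 2 were not called, with a median log2 fold change of 0.07 (length-corrected −0.05, 3 lower and 1 higher). Of all tested genes 23.3% were lower and 24.1% higher, and length-corrected 18.3% were lower and 20.2% higher. With only 6 genes, nothing is read from these counts. Srebf1 encodes the factor that acts on fatty acid and sterol genes (ENSMUSG00000020538, mm10 chromosome 11, 60199089 to 60222581). It had 139 CPM in each untreated library and 108, 107 and 108 CPM in the rapamycin libraries. No other member had so narrow a spread relative to its level, and the log2 fold change was −0.37 ± 0.04 (length-corrected −0.37; adjusted p = 1.6e-11). On TPM it was 79.2 ± 5.72 in untreated and 68.1 ± 3.76 in rapamycin libraries, which missed the threshold (limma adjusted p = 0.0503). Insig1 encodes a retention protein of Scap and is itself a target of the Srebf factors. It went from 43.1, 37.3 and 36.5 CPM to 31.2, 31.7 and 33.0 CPM. The groups did not overlap, with a log2 fold change of −0.29 ± 0.08 (adjusted p = 0.0018), but the test on TPM did not call it (−0.12, adjusted p = 0.324).

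Srebf2, whose product acts mainly on sterol genes, had 342, 358 and 347 CPM without and 364, 374 and 364 CPM with rapamycin, with a log2 fold change of 0.08 ± 0.03 (adjusted p = 0.0164) that turned to −0.08 when length-corrected (adjusted p = 0.0132). It was not called with upper-quartile factors (0.03), without composition factors (0.03), without a filter (0.06), or without untreated replicate 1 (0.06), untreated replicate 3 (0.07) or rapamycin replicate 2 (0.06). On TPM, Srebf2 was 109 ± 3.06 in untreated and 124 ± 0.658 in rapamycin libraries and was called higher (limma, 0.19, adjusted p = 0.0094). TPM divides by a gene's length within each library, which does not remove the trend of changes with length. The median log2 difference of all tested genes was 0.09 on that scale. Nr1h2, the LXR receptor of most tissues, had 128, 114 and 125 CPM without and 138, 138 and 133 CPM with rapamycin. Its log2 fold change of 0.15 ± 0.04 (adjusted p = 0.0025) became 0.27 when length-corrected (adjusted p = 4.0e-07), and the call was lost without untreated replicate 2 (0.10, adjusted p = 0.0731). The test on TPM called Nr1h2 higher (0.31, adjusted p = 0.0030). Scap was not called, at 107 ± 4.68 and 112 ± 1.94 CPM (0.06 ± 0.04, length-corrected −0.02).

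Insig2 gave different results by count and by level per length. Its CPM was 15.9, 17.5 and 14.7 in untreated and 19.8, 17.4 and 14.7 in rapamycin libraries, which overlapped (0.11 ± 0.12, adjusted p = 0.471). Its TPM was 19.3, 15.4 and 17.0 in untreated and 32.0, 24.2 and 31.3 in rapamycin libraries, with no overlap (limma on log2(TPM + 1), 0.72, adjusted p = 0.0052). The mean deposited length of Insig2, which RSEM weights by its transcripts, was 1478.8 bases in untreated and 1095.2 in rapamycin libraries. Without rapamycin replicate 1 the log2 fold change on counts was 0.0007.

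Ratios within a library do not depend on how libraries are scaled. They can still carry the trend of changes with length where the paired genes differ in length. Srebf1 had a mean length of 2519 bases and Srebf2 of 4432 bases, and the ratios were not length-corrected. The log2 ratio of Srebf1 to Srebf2 TPM was −0.46 ± 0.07 (SD, n = 3) in untreated and −0.87 ± 0.08 in rapamycin libraries, with no overlap and an exact two-sided permutation p of 0.1. That of Insig1 to Insig2 was 0.41 ± 0.06 and −0.46 ± 0.17, a difference of −0.88 (exact permutation p = 0.1). By CPM that difference was −0.38 (exact permutation p = 0.2). The ratio of Npc1 to Npc2 was 0.34 higher with rapamycin (exact permutation p = 0.1). The ratio of Abca1 to Abcg1 was 0.20 higher by TPM (exact permutation p = 0.4) and 0.46 higher by CPM (exact permutation p = 0.1). The TPM value moved to 0.43 without untreated replicate 1, to 0.09 without untreated replicate 2 and to 0.09 without untreated replicate 3. With 3 libraries against 3 this test cannot go below 0.1, and adjusted over the 4 pairs the TPM values were 0.133, 0.133, 0.133 and 0.4, so that none passes a threshold of 0.05.

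Of the 3 transport genes 2 fell and 1 rose, against 23.3% lower and 24.1% higher of all tested genes. Nothing is read from counts this small. Stard4, a cytosolic carrier that moves cholesterol between membranes and a known target of the Srebf factors, had 34.2, 32.4 and 31.8 CPM without and 23.6, 25.6 and 25.3 CPM with rapamycin. All rapamycin libraries lay below all untreated ones, with a log2 fold change of −0.40 ± 0.09 (length-corrected −0.53; adjusted p = 6.8e-05). The test on TPM did not call it (−0.18, adjusted p = 0.247). Npc2, the lysosomal protein that binds cholesterol freed from lipoproteins, was the most abundant member, with a TPM of 228 ± 6.002 in untreated and 217 ± 5.71 in rapamycin libraries. Its CPM was 472, 485 and 467 in untreated and 423, 410 and 412 in rapamycin libraries (−0.19 ± 0.02, length-corrected −0.23; adjusted p = 1.2e-09), and the TPM test did not call it (adjusted p = 0.178). Macrophages are rich in Npc2, and the summed myeloid markers were lower in the same libraries, as given above. Their part in the result was not tested. Npc1, the lysosomal membrane partner of Npc2, had 61.9, 60.7 and 58.8 CPM without and 66.4, 69.8 and 66.3 CPM with rapamycin (0.16 ± 0.06, adjusted p = 0.0182). Length-corrected its log2 fold change was −0.004 (adjusted p = 0.967), and it was not called when untreated replicate 3 (0.14) or rapamycin replicate 2 (0.13) was left out, with DESeq2 (0.16), with upper-quartile factors (0.11), without composition factors (0.12) and without a filter (0.14). The test on TPM called Npc1 higher, at 18.4 ± 0.149 in untreated and 22.1 ± 0.909 in rapamycin libraries (0.25, adjusted p = 0.0320). On that scale, which does not remove the trend with length, the median of all tested genes was 0.09.

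All 3 efflux and storage genes were called higher, against 24.1% of all tested genes. The length correction left 1 of them called, against 20.2%, and the test on TPM called 0 of them higher, against 22.8%. Abca1 exports cholesterol to lipid-poor apolipoprotein and is a classic LXR target (ENSMUSG00000015243, mm10 chromosome 4, 53030787 to 53159895). Its CPM was 36.5, 35.7 and 30.8 in untreated and 46.5, 53.7 and 59.7 in rapamycin libraries. The lowest rapamycin library stood above the highest untreated one, and the rapamycin mean was 155% of the untreated mean, with a log2 fold change of 0.63 ± 0.08 (adjusted p = 2.6e-09). Its transcripts are the longest among the members, at a mean of 9800 bases, and the length-corrected value was 0.25 ± 0.08 (adjusted p = 0.0083). On TPM it was 6.62, 4.69 and 4.04 in untreated and 6.50, 7.50 and 8.35 in rapamycin libraries, which overlapped and missed the threshold (0.48, adjusted p = 0.0769).

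Abcg1, which passes cholesterol to mature lipoprotein, had 92.1, 90.6 and 92.3 CPM without and 103, 101 and 103 CPM with rapamycin (0.16 ± 0.05, adjusted p = 0.0028). The CPM values did not overlap, but length-corrected the log2 fold change was −0.002 (adjusted p = 0.980), and the TPM test did not call it (0.35, adjusted p = 0.0573). Soat1, which esterifies cholesterol for storage in droplets, had 39.2, 38.9 and 40.3 CPM without and 47.1, 44.1 and 42.9 CPM with rapamycin (0.18 ± 0.07, adjusted p = 0.0288). Its call was lost under 10 of 16 alternatives. Among them were the length correction (0.02), DESeq2 (0.18), and leaving out untreated replicate 1 (0.17), untreated replicate 2 (0.17) or rapamycin replicate 1 (0.14). Macrophages also use these 3 genes. In the rapamycin libraries the summed myeloid markers were lower and the CD8 genes higher, as given above, and the part of either in these results was not tested.

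**Figure D3:**
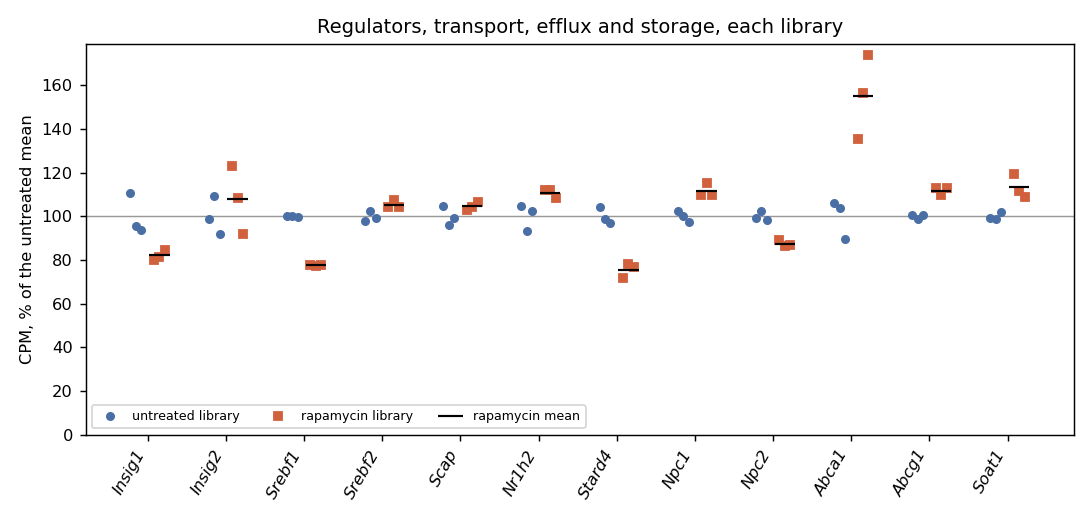
CPM of the regulators, transport, efflux and storage genes in each library as a percentage of the untreated mean (y axis); circles are untreated libraries, squares rapamycin libraries and bars the rapamycin mean. Srebf1 lies at 77.1 to 77.9% and Abca1 at 136 to 174% in rapamycin libraries; Npc1 and Abcg1 lie above 100% here and change sign when length-corrected.

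**Figure D4:**
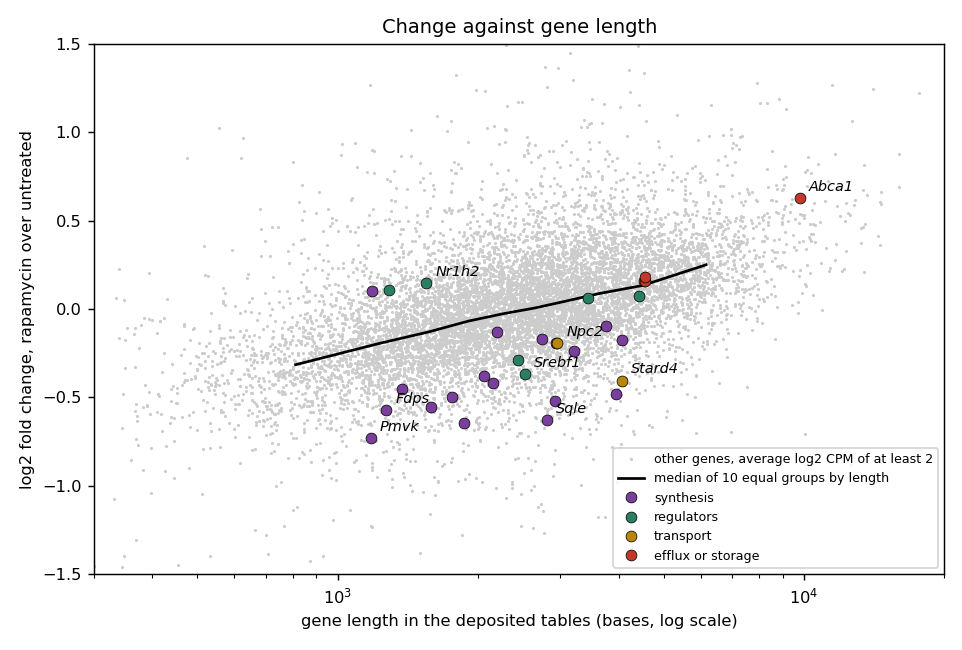
Log2 fold change by TMM scaling (y axis) against the mean deposited gene length in bases (x axis, log scale; axes limited to the range shown), grey for all genes whose log2 CPM averages 2 or more, the line for the median of 10 equal groups by length. Synthesis genes lie below the line except Tm7sf2, while Srebf2, Npc1, Abcg1 and Soat1 lie near the line, whose level is 0.13 in their length group.

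Set against genes of their own length, the members divided differently than by sign alone. Stard4 and Abcg1 both belong to the length group whose median log2 fold change was 0.13, with Stard4 at −0.40 and Abcg1 at 0.16. Pmvk and Fdps belong to the second shortest group, with a median of −0.19, and stood at −0.73 and −0.57. Nr1h2 belongs to a short group with a median of −0.13 and stood at 0.15. Abca1 belongs to the longest group, with a median of 0.25, and stood at 0.63. That group starts at 5091 bases and Abca1 has 9800, so the group's median need not be the level at that length. The length-corrected log2 fold change of Abca1 was 0.25. The median length was 2171 bases for the synthesis genes, 4548 bases for the transport, efflux and storage genes and 2366 bases for all tested genes.

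Levels per length, as TPM, differed widely between members. Fdps was the highest synthesis gene, at 54.5 ± 0.892 in untreated libraries, and Hsd17b7 the lowest, at 4.48 ± 0.716. The other 16 synthesis genes had untreated means between 10.01 (Lss) and 28.8 (Ebp). The regulators Nr1h2 (121 ± 4.08), Srebf2 (109 ± 3.06) and Srebf1 (79.2 ± 5.72) stood above all synthesis genes. Abca1, at 5.12 ± 1.34, was the lowest of the transport, efflux and storage genes, and Abcg1 stood at 27.1 ± 2.30.

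**Figure D5:**
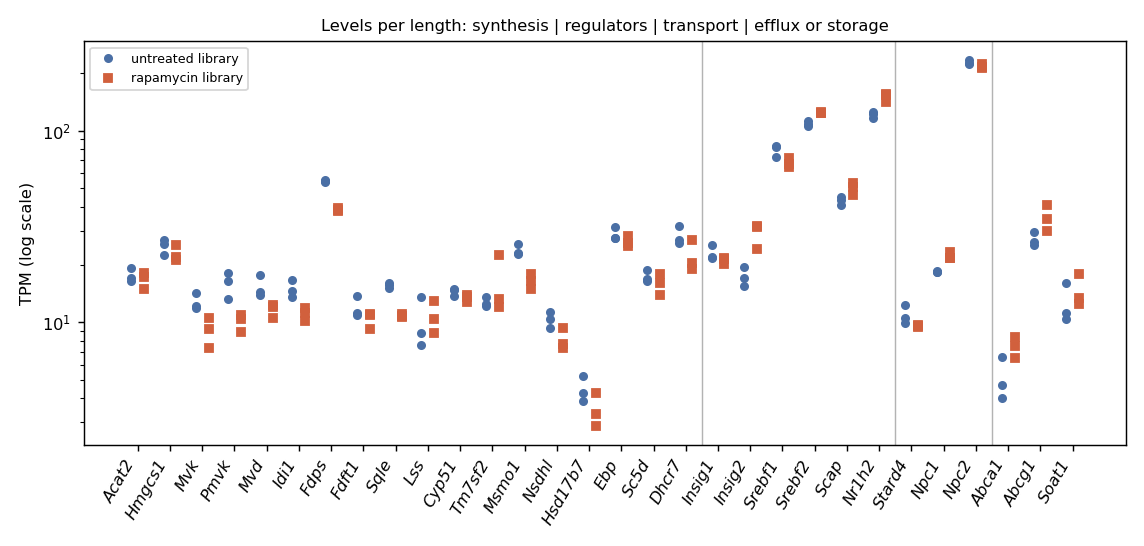
TPM of each member in each library (y axis, log scale), circles for untreated and squares for rapamycin libraries, with lines between the synthesis, regulator, transport, and efflux or storage classes. Npc2 is highest, at 212 to 235 over all 6 libraries, and Hsd17b7 lowest among the synthesis genes; the 3 rapamycin libraries of Insig2 lie above its untreated ones on this scale.

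Other genes of sterol and isoprenoid handling came from a list of 58, of which 46 were tested. Of the 46, 7 were lower and 12 higher, against 23.3% and 24.1% of all tested genes, with a median log2 fold change of 0.04. Length-corrected, 9 were lower and 9 higher, against 18.3% and 20.2%, with a median of 0.03. These counts are near or below the shares of all tested genes, and nothing is read from them. Gramd1a, which carries cholesterol from the plasma membrane to the endoplasmic reticulum, rose from 934 ± 19.3 to 1255 ± 23.9 CPM (SD, n = 3), with a log2 fold change of 0.43 (length-corrected 0.38; adjusted p = 1.9e-28). Mbtps1, the protease that makes the first cut in the Srebf precursors, rose by 0.38 (length-corrected 0.27) and the lipid transporter gene Abca7 by 0.47 (length-corrected 0.20). Nfya, a subunit of the factor that binds the NF-Y box, rose by 0.35 (length-corrected 0.33). Acat1, the mitochondrial thiolase, went from 67.2 ± 2.82 to 48.2 ± 3.40 CPM, with a log2 fold change of −0.48 (adjusted p = 2.1e-09). Its cytosolic relative Acat2, a member, was not called at −0.13.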

How the data were processed

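Poly(A) RNA libraries from 3 untreated and 3 rapamycin samples were analysed, grouped by their treatment labels. The deposited tables give RSEM expected counts, which the authors made with STAR and RSEM on mm10 per the submitters' processing notes, and TPM (abundance scaled for transcript length and library size), which the authors' RSEM runs computed from the same alignments with a length for each gene. Versions of these tools and the strand setting of the counting are not given in the sources used here. Symbols came from GENCODE vM21, which matched 55227 of 55487 gene IDs. Promoters came from RefSeq (GRCm38.p6).

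Expected counts were rounded, filtered with filterByExpr (11950 genes kept), scaled by TMM and tested with edgeR 4.0.16 (R 4.3.3) by its quasi-likelihood test with Benjamini-Hochberg adjustment over all tested genes. SEs are the fold change divided by the square root of F. The length correction used a spline with 5 df on log2 length over genes whose log2 CPM averages 2 or more. TPM was tested as log2(TPM + 1) with limma 3.58.1, so a change on this scale is understated for low genes. Alternatives were other scalings and filters, DESeq2 1.42.0, a pseudocount of 0.1, a replicate block and leaving out each library. The edgeR fit with TMM scaling was tested on simulated counts with known changes and no length trend. The length correction and the other tests were not tested in this way. Replicate pairs differed by more than counting noise, so no library was counted as a copy. The largest library held 11393299 counts, and no library had fewer than 8757273.

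All 30 members are named. Of the 58 other pathway genes the 6 with the smallest adjusted p are named, and of each marker list (T cell, B cell, plasma cell, myeloid, NK and cytotoxic, CD8, erythroid and platelet) the 2 with the highest mean CPM; a few genes these rules pick are not reported here. The members and lists were chosen with earlier results of these data known.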

Additional observations from a re-analysis of the deposited data

How the results depend on the processing

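Of the 30 members, 9 kept their direction and their side of the threshold under all 16 alternatives: Acat2, Mvk, Pmvk, Mvd, Idi1, Fdps, Fdft1, Sqle and Msmo1, of which Acat2 and Fdft1 were never called. The test on TPM gave the lowest counts of lower genes. With a pseudocount of 1 and of 0.1 it called 7 and 7 members lower, 7 and 7 synthesis genes, 0 and 0 regulators, 0 and 0 transport, efflux and storage genes, 2 and 2 other pathway genes, and 1151 and 1137 of all genes. Higher members numbered 3 with upper-quartile factors, 3 without composition factors, 3 without a filter and 2 when length-corrected, while 2459, 2470, 2612 and 2411 of all genes were higher under these settings, against 2874. Among the higher members were 1 regulator under each of these 4 settings, and 2, 2, 2 and 1 transport, efflux and storage genes. DESeq2 called 2 of that last class higher, and limma on TPM 1 with either pseudocount. Leaving out 1 library at a time gave 14 to 17 lower and 4 to 6 higher members, and 1 to 2 regulators higher, while 2486 to 2562 of all genes were lower and 2579 to 2698 higher. The sign turned for Lss on TPM (0.11 and 0.12), for Tm7sf2 without rapamycin replicate 1 (−0.029, and 0.21 without rapamycin replicate 2, so that leaving out 1 library at a time gave −0.029 to 0.21), and, length-corrected, for Srebf2 (−0.079), Scap (−0.016), Npc1 (−0.0039) and Abcg1 (−0.0021). The cause was not tested.

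With a replicate block, 16 members were lower and 6 higher, no member's call changed, and 2743 and 2850 of all genes were lower and higher. Same-numbered libraries did not deviate together (correlations of −0.062, −0.031 and −0.064), so the numbers were not taken as pairs. Precision was lowest for Hsd17b7, Mvk, Tm7sf2 and Pmvk, at SEs of 0.14 to 0.16, the 4 members with the lowest counts.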
